A study of Homo sapiens with 2 samples.

Results

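The ADAM genes described here encode 6 membrane-bound metalloproteases, ADAM8, ADAM9, ADAM10, ADAM15, ADAM17 and ADAM19. They are 6 of the 20045 genes that the platform annotation names on the array, and every probe assigned to them was taken, 13 in all. The genes were chosen by their intensities and log2 ratios on these same arrays, so their values are a description and no test was applied to them. Ratios were made from HCT116 cells, a human colorectal carcinoma line labelled p53+/+, treated with 10 nM SB590885, an inhibitor of RAF kinases, or with vehicle at 80% confluence in medium with 10% serum. Each condition had 1 Illumina bead array, so no value below has an error from replicates. Whether it comes from the inhibitor or from another difference between the 2 cultures cannot be told apart. The time of treatment is not given in the sources used here.

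ADAM proteases are anchored in the membrane and cut the outer parts off neighbouring membrane proteins, a step called ectodomain shedding. Their prodomain keeps them inactive until proprotein convertases such as furin remove it, and their disintegrin domain can bind integrins. ADAM17 releases ligands of the EGF receptor and tumour necrosis factor, and ADAM10 starts the cleavage of Notch receptors and sheds E-cadherin. In colon carcinoma cells this shedding supplies EGF receptor ligands, which feed the RAS-RAF-MEK-ERK pathway in which SB590885 acts. ADAM8, ADAM9, ADAM15 and ADAM19 are further catalytically active members with broader or less settled substrates.

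ADAM19 stood out among the members, with a 3.24-fold higher intensity on the SB590885 array from 1 of its 2 probes. ADAM15 was 1.24-fold higher, ADAM10 was 1.33-fold lower, ADAM17 was at nearly the same intensity on both arrays, ADAM9 lay at the limit of detection and ADAM8 was not detected. Detection of a probe means that its detection p, which compares it with the array's background, was under 0.01 on either array. Of the 13 probes 10 were detected, 7 of them on both arrays, 2 on the vehicle array only and 1 on the SB590885 array only. Where a gene had several detected probes, the brightest stands for it below. The others are given beside it for every ADAM member, but only for some of the other genes. Close to the limit of detection lay ADAM9 and ADAM17 (probe ILMN_1765779) with their lowest detection p at 0.0052 and ADAM10 (probe ILMN_2148360) at 0.0065, just inside, and ADAM17 (probe ILMN_1908488) at 0.030, just outside.

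On the whole arrays 35.3% of 47318 probes were detected with SB590885 and 33.7% with vehicle, which gave 10430 detected genes with a median log2 ratio of -0.00082 (SD 0.24 over genes). Of these genes 1.51% were at least 1.5-fold higher and 1.16% at least 1.5-fold lower. Of 12 colon epithelium markers 7 were detected, among them EPCAM, KRT8, KRT18, KRT19 and CDH1, while KRT20, CDH17, CDX1, VIL1 and CEACAM5 were not. Of 12 markers of leukocytes, stroma and endothelium with a probe, only CD68, COL1A1 and DCN were detected, and all 3 lay within 1.5-fold. Of 17 ERK output genes, which normally follow the activity of the pathway, none differed by 1.5-fold (7 higher, 10 lower, median log2 ratio -0.06), and they ran from EGR1, an immediate early transcription factor, at 1.31-fold lower to DUSP6, the ERK phosphatase, at 1.29-fold higher. The intensities carry the arrays' background, about 112.4 units on the vehicle array, which compresses ratios of dim probes.

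**Figure D1:**
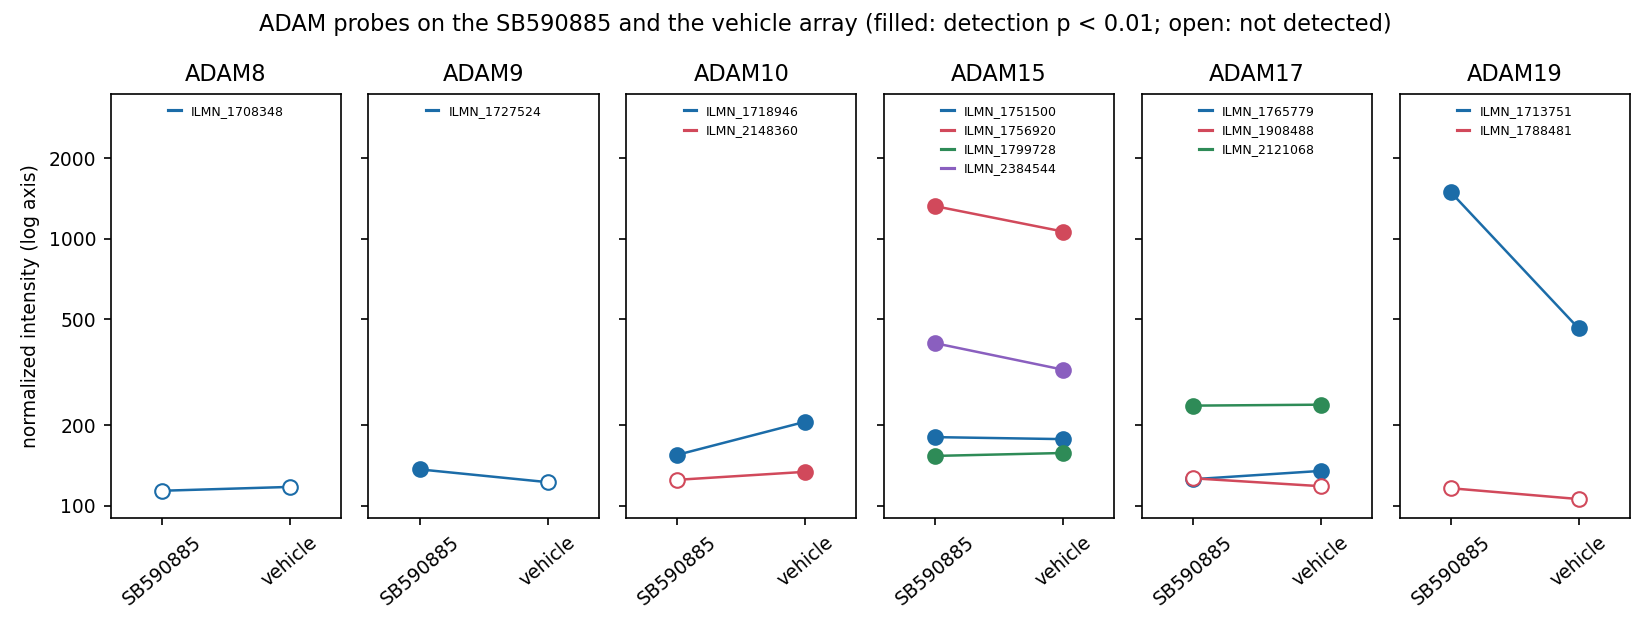
Normalized intensity (log axis) of each of the 13 ADAM probes on the SB590885 array (left) and the vehicle array (right), with 1 line per probe and open symbols where the probe was not detected on that array. The steep line is ADAM19 probe ILMN_1713751, at 1495.3 with SB590885 and 461.6 with vehicle, and the other lines run nearly flat or change by less than 1.5-fold.

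The promoters of the 3 genes with the largest ratios are shown so that the members at either end of the range can be read side by side. Each line holds the 250 bases before the annotated start in RefSeq's GRCh38.p14, read along the gene's own strand. ADAM19 is the gene with the higher intensity (chr5:157575776-157576025, minus strand), ADAM15 had a smaller difference in the same direction (chr1:155051066-155051315, plus strand) and ADAM10 was lower (chr15:58749708-58749957, minus strand). Capitals mark matches on either strand to the motifs AP-1 (TGANTCA), ETS (CCGGAA), TEAD (GGAATG), E-box (CACGTG), SP/KLF (GGGCGG) and SOX (ACAAAG).
ADAM19: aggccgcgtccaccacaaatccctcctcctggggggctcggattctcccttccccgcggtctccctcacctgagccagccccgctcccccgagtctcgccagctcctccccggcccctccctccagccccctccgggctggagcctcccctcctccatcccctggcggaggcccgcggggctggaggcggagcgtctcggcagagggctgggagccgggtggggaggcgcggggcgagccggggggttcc
ADAM15: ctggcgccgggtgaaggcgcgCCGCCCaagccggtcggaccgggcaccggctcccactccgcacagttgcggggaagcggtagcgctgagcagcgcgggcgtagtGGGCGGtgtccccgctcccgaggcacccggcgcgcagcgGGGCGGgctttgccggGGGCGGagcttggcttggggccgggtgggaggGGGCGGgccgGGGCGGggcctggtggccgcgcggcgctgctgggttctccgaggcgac
ADAM10: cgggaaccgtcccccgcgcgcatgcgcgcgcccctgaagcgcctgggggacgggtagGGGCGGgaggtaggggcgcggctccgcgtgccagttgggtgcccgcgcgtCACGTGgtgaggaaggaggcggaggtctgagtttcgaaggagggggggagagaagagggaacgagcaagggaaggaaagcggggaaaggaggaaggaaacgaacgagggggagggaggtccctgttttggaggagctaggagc

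The 3 windows share a high content of G and C and differ in their motif matches. G and C made up 76.4% of the ADAM19 window, 79.6% of the ADAM15 window and 68.4% of the ADAM10 window, against a median of 58% over 35116 promoters of the same length. ADAM15 held 6 SP/KLF matches, ADAM10 held 1 SP/KLF and 1 E-box match, and these letters were found nowhere in the ADAM19 window. An SP/KLF match occurred in 42.6% of all promoters and an E-box match in 6.34%. AP-1 matches occurred in 6.57% of all promoters, ETS matches in 14.5%, TEAD matches in 11.9% and SOX matches in 13.7%. None of these 4 was found in the 3 windows shown. Of the 2 further members with a promoter sequence here, ADAM17 had 3 SP/KLF, 1 ETS and 1 TEAD match and ADAM8 had 3 SP/KLF matches. A match describes the letters in this window and does not show binding.

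ADAM19, also called meltrin beta, sheds neuregulin and other membrane proteins. Its probe ILMN_1713751 had an intensity of 1495.3 with SB590885 and 461.6 with vehicle, a log2 ratio of 1.70. This probe was well above background on both arrays (detection p of 0 on each). Its ratio was the 6th highest of 10430 detected genes. With background correction it was 3.84-fold higher. The second ADAM19 probe, ILMN_1788481, is annotated to the same RefSeq transcript and read 116.3 with SB590885 and 105.9 with vehicle, with detection p-values of 0.26 and 0.88. It was therefore not detected on either array, and the difference rests on 1 probe. Of the 9 genes at least 2-fold higher that had more than 1 probe, 4 had no other probe detected, ADAM19 among them. The same held for 1515 of 4146 detected genes with more than 1 probe, or 36.5%. Neither figure bears on which of the ADAM19 probes reads the transcript.

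ADAM15, also called metargidin, carries an integrin-binding motif in its disintegrin domain and is made in several splice forms that differ in the cytoplasmic tail. All 4 of its probes were detected on both arrays. Probe ILMN_1756920 read 1324.6 with SB590885 and 1064.1 with vehicle, and probe ILMN_2384544 read 406.2 with SB590885 and 323.3 with vehicle. These 2 probes had log2 ratios of 0.32 and 0.33, or 1.24-fold and 1.26-fold higher. The other 2 probes were nearly level: ILMN_1751500 read 180.7 with SB590885 and 177.6 with vehicle, and ILMN_1799728 read 153.6 with SB590885 and 157.6 with vehicle. The log2 ratios of these dimmer probes were 0.02 and -0.04. The 4 probes are annotated to 3 RefSeq transcripts, and ILMN_1756920 and ILMN_1751500, 1 from each pair, share 1 of them. Which splice forms each probe reads was not tested. With background correction the brighter pair had 0.34 and 0.45 and the dimmer pair 0.05 and -0.10. The mean over all 4 probes was 0.16 in the deposited values.

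ADAM10, the protease that starts Notch cleavage and acts as an alpha-secretase on the amyloid precursor protein, was lower on the SB590885 array. Probe ILMN_1718946 read 155.1 with SB590885 and 206.3 with vehicle, a log2 ratio of -0.41. Probe ILMN_2148360 read 125.0 with SB590885, where it was not detected, and 133.9 with vehicle, at least 1.03-fold lower. This dimmer probe passed detection only on the array where it was higher, so its direction is no second measurement of ADAM10. The mean of the measured log2 ratios of both probes was -0.26. Background correction changed the size of the ADAM10 difference more than that of ADAM15 or ADAM19: ILMN_1718946 became 1.88-fold lower, a log2 ratio of -0.91, which is past 1.5-fold. Its rank in the deposited values was 385th from the lowest of 10430 genes.

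ADAM17, the tumour necrosis factor converting enzyme, was level. Its brightest probe ILMN_2121068 read 237.1 with SB590885 and 239.0 with vehicle, a log2 ratio of -0.01. Probe ILMN_1765779 read 125.7 with SB590885 and 135.0 with vehicle and was detected with vehicle only. The third probe, ILMN_1908488, whose annotated accession is not a current RefSeq transcript of ADAM17, read 126.7 with SB590885 and 118.3 with vehicle and was detected on neither array. With at most 1 array detecting them, these 2 dim probes give no measured ratio for ADAM17.

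ADAM9, also called meltrin gamma, is a broadly expressed protease of epithelial cells. Its 1 probe read 136.8 with SB590885, where it was detected, and 122.5 with vehicle, where it was not. Against the lowest detected intensity of the vehicle array, 132.2, the ADAM9 intensity was at least 1.03-fold higher. The probe passed detection only on the array where it was higher, so the direction of this bound is no measurement of ADAM9. ADAM8, a protease best known from leukocytes, read 113.8 with SB590885 and 117.6 with vehicle, with detection p-values of 0.40 and 0.22. Its transcript was not detectable here, and no fold is given for it.

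**Figure D2:**
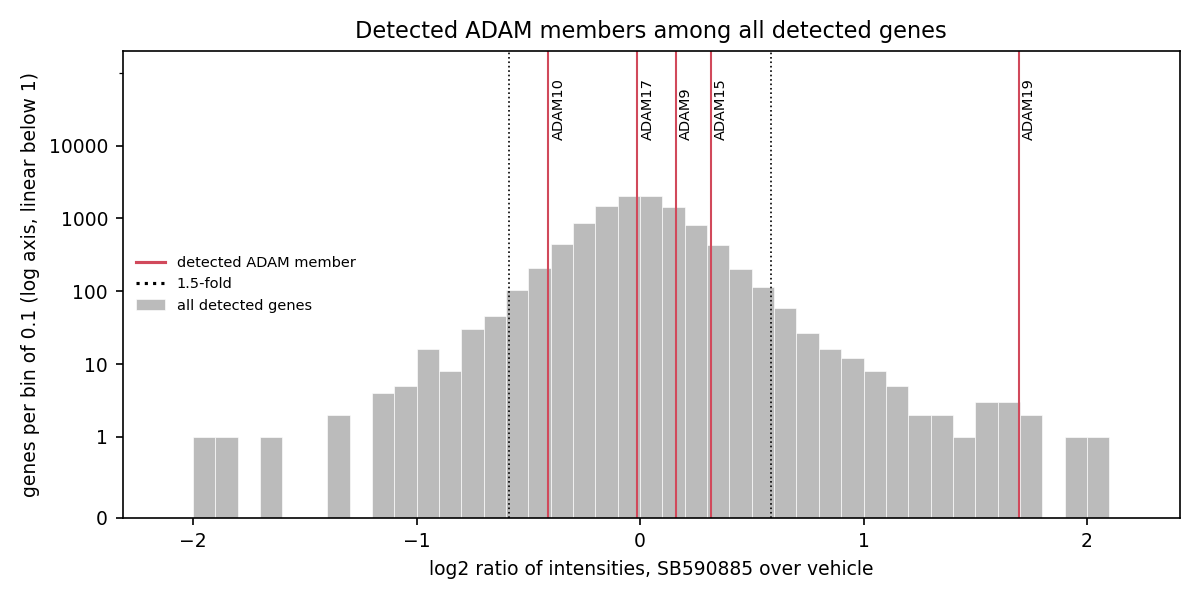
Histogram of the log2 ratios of all 10430 detected genes (bins of 0.1; vertical axis logarithmic above 1), with red lines at the 5 detected ADAM members and dotted lines at 1.5-fold. ADAM10, ADAM17, ADAM9 and ADAM15 lie inside the dotted lines, from -0.41 to 0.32, and ADAM19 lies far to the right at 1.70.

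Of the 5 detected members 3 were higher and 2 lower, beside 49.8% of all detected genes that were higher. ADAM9, 1 of the 3, passed detection only on the array where it was higher, so its direction is no measurement. Of the members detected on both arrays, ADAM15 and ADAM19 were higher and ADAM10 and ADAM17 lower. The median log2 ratio of the members was 0.16, which is ADAM9's own ratio, and 0.05 with ADAM9 set at its bound. With detection required on both arrays, which leaves out ADAM9, it was 0.15. The median over all detected genes was -0.00082. 1 of the 5 was at least 1.5-fold different (2.67% of all detected genes were), and the same gene, ADAM19, was at least 2-fold higher (0.249% of all detected genes). These counts restate the choice of the genes. With background correction ADAM10 joined ADAM19 past 1.5-fold, when 9.78% of all detected genes passed it. ADAM9 then had a measured log2 ratio of 0.59, but it was not detected with vehicle and is counted by its bound, at least 1.13-fold higher.

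**Figure D3:**
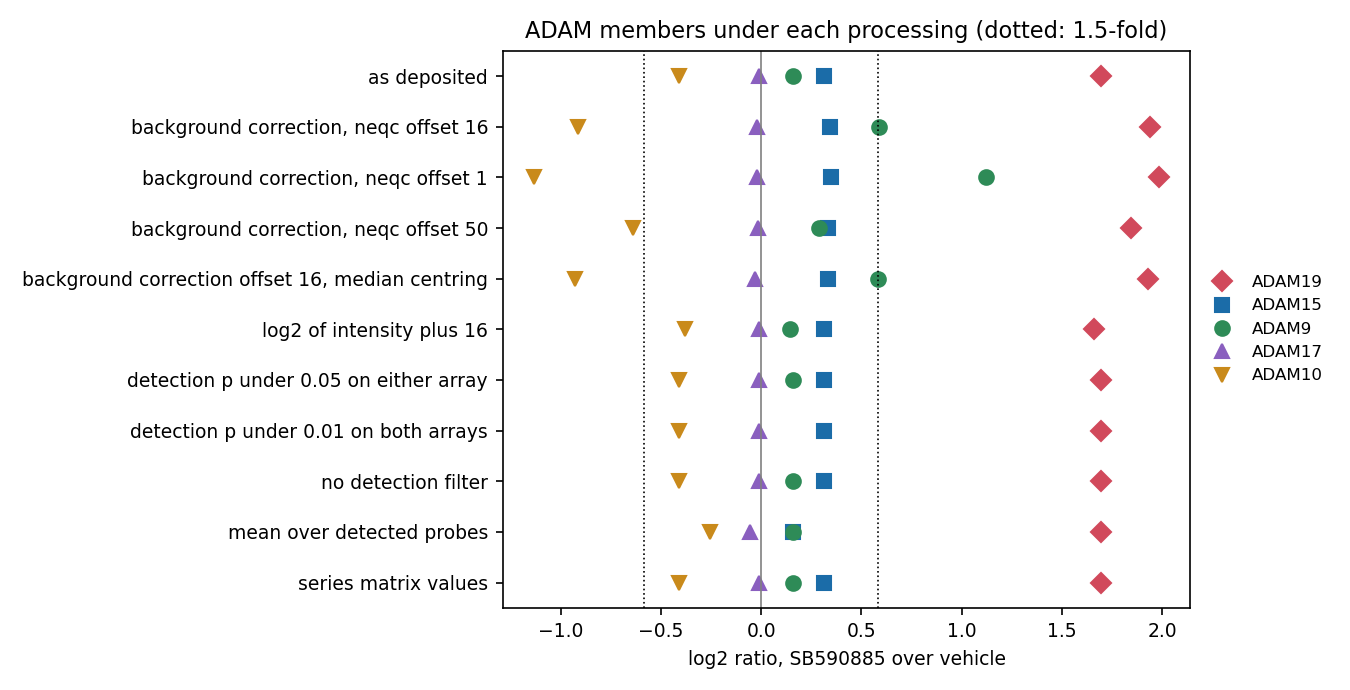
Log2 ratio of each detected ADAM member under the deposited values and under each of 10 alternatives, with dotted lines at 1.5-fold. ADAM19 stays between 1.66 and 1.99, ADAM10 is further to the left with background correction, down to -1.13, and ADAM9 moves to the right, up to 1.12, although its vehicle value is only a bound.

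Detected genes near ADAM19 on its chromosome had far smaller ratios. The 5 nearest detected genes on either side of ADAM19 on chromosome 5 had log2 ratios from -0.40 to 0.34, with 5 higher and 5 lower and a median of -0.05. The nearest detected gene on one side, CYFIP2, a regulator of actin assembly, read 336.2 with SB590885 and 266.1 with vehicle. On the other side THG1L, a tRNA-histidine guanylyltransferase, read 309.5 with SB590885 and 307.3 with vehicle. Genes that were not detected are left out of this order. No ADAM19 neighbour reached 1.5-fold.

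Around ADAM10 on chromosome 15, 3 of 10 neighbours were lower by a similar amount, 4 others detected on both arrays lay between -0.07 and 0.13, and 3 were detected with SB590885 only. SLTM, an RNA-binding nuclear protein and the next detected gene, had a log2 ratio of -0.51 (392.5 with SB590885 and 560.8 with vehicle). RFX7 and TCF12, both transcription factors, had -0.54 and -0.46. Around ADAM15 on chromosome 1, 7 of 10 neighbours were higher with a median of 0.18, and the ephrin ligand genes EFNA4 and EFNA1 that follow it had 0.27 and 0.15. EFNA3, between them, was detected with SB590885 only and had no measurable difference at its bound. DPM3, a subunit of dolichol-phosphate mannose synthase, was the 1 neighbour of ADAM15 past 1.5-fold, at 859.6 with SB590885 and 557.2 with vehicle. Around ADAM17 on chromosome 2, 8 of 10 neighbours were lower, with a median of -0.19, although ADAM17 itself was level. Over all detected genes 49.8% were higher, and whether any group of 10 neighbours departs from this share was not tested. The neighbours of ADAM8 and ADAM9 had medians of -0.04 and 0.01. These counts and medians use measured ratios, also for the neighbours detected on 1 array only, of which there were 1 each for ADAM15 and ADAM17 and 2 each for ADAM8 and ADAM9.

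**Figure D4:**
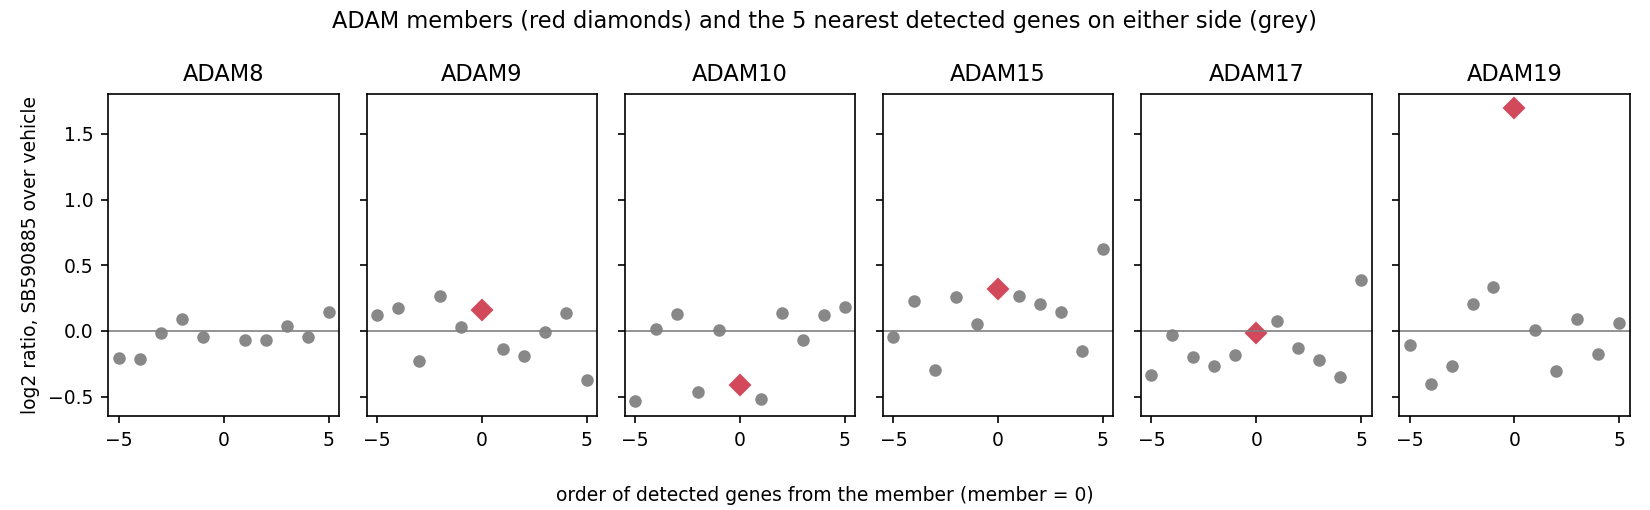
Log2 ratios of the detected ADAM members (red diamonds) and of the 5 nearest detected genes on either side along the chromosome (grey), with gene order on the horizontal axis. ADAM19 stands alone above neighbours that range from -0.40 to 0.34, whereas the ADAM15 diamond at 0.32 lies within the range of its neighbours, -0.30 to 0.63.

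None of the remaining ADAM family was detected. Of 15 further genes 14 had a named probe, 25 probes in all, and their intensities lay between 103.3 and 128.5 with SB590885 and between 102.0 and 129.3 with vehicle. The nearest to detection was ADAM12, with a lowest detection p of 0.016. Other metalloproteases of the same superfamily were mostly below detection too. Among 23 matrix metalloproteases, which cut extracellular matrix, 3 were detected: MMP15, a membrane-type enzyme, read 179.6 with SB590885 and 149.8 with vehicle. MMP11 read 159.3 with SB590885 and 131.6 with vehicle, where it was not detected, and MMP23B read 152.9 with SB590885 and 155.0 with vehicle. None of the 3 was past 1.5-fold as deposited. MMP14, the membrane-type enzyme often studied beside ADAM proteases, was not detected. Among 24 ADAMTS and other metzincin genes with a probe, the secreted protease BMP1 was detected on both arrays (259.5 with SB590885 and 229.3 with vehicle). ADAMTS15 was detected with vehicle only, at 116.9 with SB590885 and 132.3 with vehicle.

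Genes that mature, carry or inhibit ADAM proteases mostly differed little. Of 24 detected maturation and trafficking genes 13 were higher and 11 lower, with a median log2 ratio of 0.01. 1 of the 24 was past 1.5-fold, beside 2.67% of all detected genes. That gene was TSPAN5, a tetraspanin that carries ADAM10 out of the endoplasmic reticulum, which read 442.7 with SB590885 and 708.3 with vehicle, 1.60-fold lower. TSPAN14, another carrier of ADAM10, read 274.7 with SB590885 and 354.0 with vehicle, a log2 ratio of -0.37. All 6 tetraspanins of this ADAM10-binding group were detected. 5 were lower and 1, TSPAN17, was higher, beside 49.8% of all detected genes that were higher. The remaining 4 besides TSPAN5 and TSPAN14 lay between -0.13 and 0.08. Of these, TSPAN10 was detected with vehicle only and TSPAN15 was level at -0.02. The grouping by role within the list was made with the values known.

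The proprotein convertases were level, with FURIN, which removes the prodomain, at 162.9 with SB590885 and 153.1 with vehicle, and PCSK5, PCSK6 and PCSK7 between -0.14 and 0.02 on the log2 scale. The iRhoms, which bring ADAM17 to the cell surface, were near equality: RHBDF2 read 452.6 with SB590885 and 466.0 with vehicle, and RHBDF1 had a log2 ratio of -0.19. FRMD8, which stabilises the iRhom complex, had 0.07. Of 7 detected SH3 adaptors and kinases that can bind ADAM tails, 6 were higher, beside 49.8% of all detected genes. None of the 7 reached 1.5-fold as deposited. SH3PXD2B, an adaptor of podosomes, led them at 241.5 with SB590885 and 178.7 with vehicle, a log2 ratio of 0.43. With background correction SH3PXD2B was 1.77-fold higher. In the deposited values it was followed by the kinase SRC at 0.38 and PACSIN2 at 0.36, and GRB2 was lower at -0.27. This group, too, was made with the values known. It leaves out DLG1 of the same list, level at 0.01, and SNX9 and LCK, which were not detected.

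None of the 4 detected genes of the inhibitor list reached 1.5-fold. TIMP1 read 2147.6 with SB590885 and 2371.6 with vehicle, a log2 ratio of -0.14. TIMP2 read 841.7 with SB590885 and 715.3 with vehicle, a log2 ratio of 0.23, with its second probe at -0.01. SPINT1 and SPINT2, membrane inhibitors of serine proteases, had 0.01 and -0.02. TIMP3, the TIMP that blocks ADAM17 most strongly, was not detected, and neither were TIMP4, RECK, A2M, SFRP1, SPOCK1 and SPOCK2.

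Among the proteins that ADAM proteases shed, single genes differed in either direction. Of 33 detected substrates other than EGF family ligands 19 were higher and 14 lower, with a median log2 ratio of 0.05. 1 was at least 1.5-fold higher and 2 at least 1.5-fold lower, beside 1.51% and 1.16% of all detected genes. JAG1, a Notch ligand, read 290.7 with SB590885 and 181.4 with vehicle, 1.60-fold higher. AXL, a receptor tyrosine kinase, read 206.7 with SB590885 and 387.0 with vehicle, 1.87-fold lower, and the log2 ratio of the second AXL probe was -0.64. CD44, the hyaluronan receptor, read 1104.0 with SB590885 and 1781.3 with vehicle, 1.61-fold lower. Its second detected probe on both arrays had -0.74, and its dimmest was detected with vehicle only. Within 1.5-fold lay the prion protein gene PRNP (-0.45), the mucin MUC1 (-0.43) and the receptor kinase MERTK (-0.37) on the low side. EPCAM, an epithelial adhesion protein, had 0.54 on its brightest probe but 0.11 and -0.12 on the other 2. TNFRSF1A, a receptor of tumour necrosis factor, had 0.44. E-cadherin (CDH1) and the receptor MET, both shed by these enzymes, were level at -0.01 and 0.03, and the Notch receptors NOTCH1, NOTCH2 and NOTCH3 had 0.09, -0.21 and 0.29. Messenger RNA values do not show how much of a protein was shed.

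Of 9 EGF family ligands with a probe 3 were detected. All 3 were higher, beside 49.8% of all detected genes, and none by 1.5-fold. Epiregulin (EREG) read 271.8 with SB590885 and 185.2 with vehicle, 1.47-fold higher, and 1.98-fold higher with background correction. HBEGF and TGFA had log2 ratios of 0.08 and 0.13. NRG1, the neuregulin that ADAM19 sheds, was not detected, at 123.7 with SB590885 and 128.7 with vehicle. NRG2, NRG3 and NRG4 were not detected either.

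Gamma-secretase, which cuts the membrane stub left after ADAM10 acts, had all 5 subunit genes with a probe detected. Their median log2 ratio was 0.01, and 0.08 with the mean over detected probes. PSENEN was the highest at 231.2 with SB590885 and 177.7 with vehicle, 1.30-fold higher, and 1.67-fold higher with background correction. APH1A was the lowest at -0.07. Of 8 detected integrin genes whose proteins bind disintegrin domains 2 were higher and 6 lower, beside 49.8% of all detected genes that were higher. Their median was -0.06, with none past 1.5-fold. ITGA3 and ITGA4 were level at -0.01 and -0.02, and ITGA4 was detected with SB590885 only. ITGB5 read 898.4 with SB590885 and 1154.0 with vehicle, the lowest at -0.36, and ITGA5 was the highest at 0.19.

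**Figure D5:**
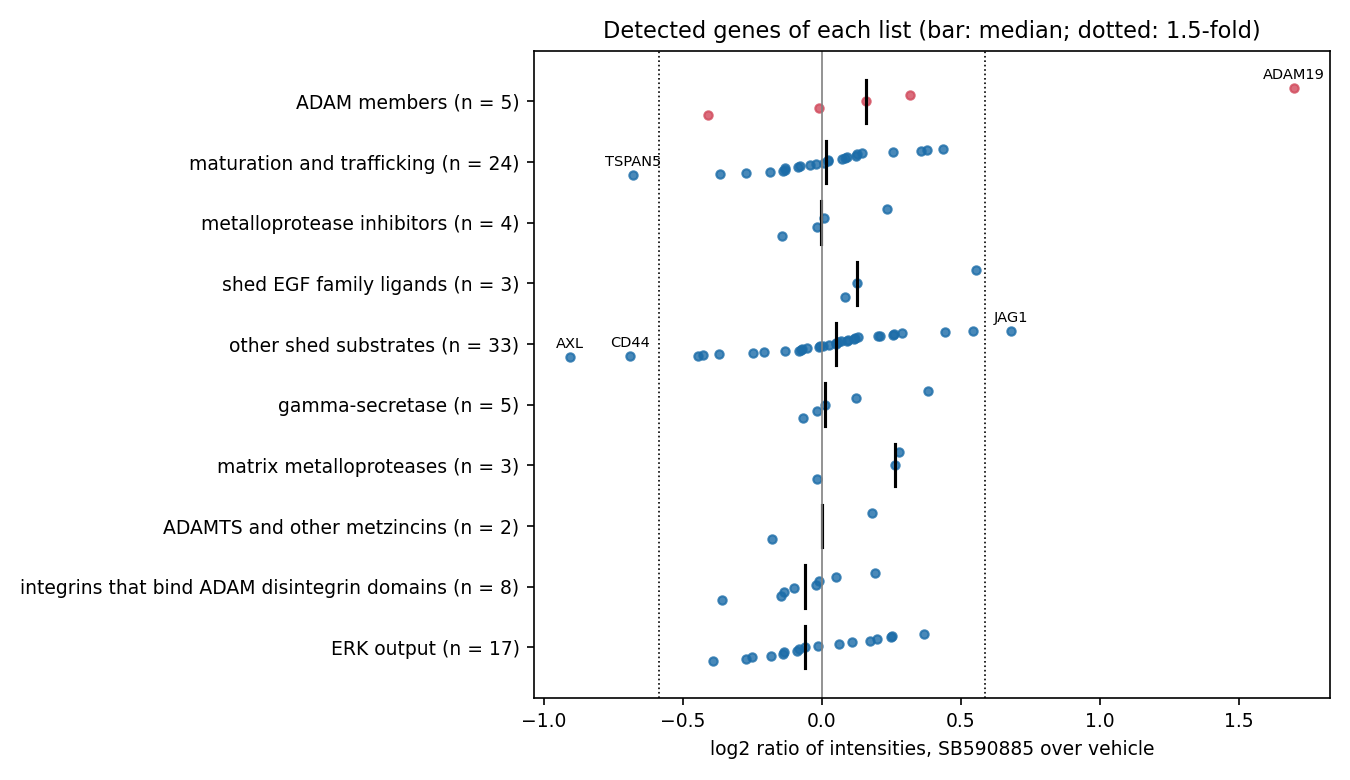
Log2 ratios of the detected genes of each list (1 point per gene, black bar at the median, dotted lines at 1.5-fold). The points of most lists lie within the dotted lines, and those outside are ADAM19 and JAG1 on the right and TSPAN5, AXL and CD44 on the left.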

How the data were processed

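RNA of HCT116 cells was measured on 1 array for SB590885 and 1 for vehicle, from biotinylated cRNA per the labels' protocols. The sources used here do not name the array software or the normalization. The authors deposited linear intensity values with detection p-values for 47318 probes. The series matrix held the same intensities (largest difference 0). The table deposited as non-normalized equals the normalized table times 1.025, its detection p-values included (deposited on another scale, up to 1.025), so no raw signal was used. After sorting, the largest difference between the arrays' intensities is 0.129, as after quantile normalization.

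From these values log2 ratios of SB590885 over vehicle were computed. Probes were named by the platform annotation (30111 probes with 1 gene, 8 with several and left unnamed). Symbols were updated through Entrez identifiers for 30072 probes, and the array files name no genome build. A gene's value is that of its brightest probe with detection p under 0.01 on either array. Where 1 array did not detect it, the fold is a bound against that array's lowest detected intensity (129.8 for SB590885, 132.2 for vehicle). Background-corrected values come from limma 3.58.1 (neqc, offset 16) on the normalized table. With 1 array per group no test was run, and the number of arrays limits the precision. Named genes are all members, genes past 1.5-fold and the highest and lowest gene of each list, and all detected inhibitors. Other named genes were chosen after their values were seen. Members and lists were chosen with earlier results of these data known. The procedure was tested on simulated data in which only bright genes were changed, by large ratios. Changes in dim genes, and changes as small as those of the members other than ADAM19, were not simulated.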

Additional observations from a re-analysis of the deposited data

How the results depend on the processing

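No paired analysis was possible because each group has 1 array. A value is called moved when it changes by at least 0.17 on the log2 scale, the SD of the difference between a gene's 2 brightest probes (0.25) over the square root of 2. A count is called moved when it changes by over 1.5 times. Of 234 alternative values over 27 results 193 stayed close to the deposited ones. No value past 1.5-fold changed direction. 1 median changed sign, that of the inhibitor list, which includes the serine protease inhibitors SPINT1 and SPINT2. It was -0.0049 as deposited and 0.042 without a detection filter, and no other ratio or median changed sign. Most moves came with background correction, where low intensities gain most by construction. Under neqc with an offset of 16, with an offset of 1, and with median centring after the offset of 16, ADAM9 had 0.59, 1.12 and 0.58, and ADAM19 had 1.94, 1.99 and 1.93. ADAM10 had -0.91, -1.13, -0.64 (offset 50) and -0.93 with median centring. ADAM19 and ADAM10 were then past 1.5-fold under each of these 4 settings, 2 members in place of 1. ADAM9 is counted here by its bound, at least 1.13-fold, 1.23-fold and 1.12-fold higher under the same 3 settings. The median of the members was 0.34 and 0.35 at offsets of 16 and 1 with ADAM9 at its measured ratio, although vehicle did not detect it. With ADAM9 at its bound the median is ADAM9's own value, 0.18 and 0.30. The median of the 3 detected matrix metalloproteases was 0.65, 0.84 and 0.64 at offsets of 16, 1 and with median centring, against 0.26 as deposited. Without a detection filter it was 0.026, over all 23 genes. The range between a gene's probes widened with offset 16 to 0.54 for ADAM10, 0.55 for ADAM15 and 0.73 for ADAM17. Of these ranges only that of ADAM15 lies between probes detected on both arrays. That of ADAM17 lies between ILMN_1908488, detected on neither array, and ILMN_1765779, detected with vehicle only. That of ADAM10 includes ILMN_2148360, which was not detected with SB590885. Counts past 1.5-fold within the lists moved in 18 cases, the largest among the shed substrates, with 3 genes as deposited, 8 at offset 16 and with median centring, and 9 at offset 1. Over all genes 1.5-fold was passed by 157 higher and 121 lower as deposited, and by 538 and 482 at offset 16. With detection required on both arrays ADAM9 gave no value. The other detection filters, the mean over probes, the added 16 and the series matrix moved no member's ratio by 0.17 or more, although the mean over probes brought ADAM15 to 0.16 and ADAM10 to -0.26.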
